A study of Homo sapiens with 6 samples.

Results

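The SLC25 genes encode the mitochondrial carriers, the largest family of transporters of the inner mitochondrial membrane. They were taken as every locus of the deposited table with a symbol made of SLC25A and a number. This gave 47 of the 74852 loci listed, and 41 of them were among the 18849 loci tested, which had 10 or more normalized reads on average. MDA-MB-231 cells, an established line of triple negative breast cancer, had been transfected in 2 rounds, either with non-targeting siRNAs (si-CTRL, 3 libraries) or with siRNAs that target KHDRBS1, the gene of SAM68 (si-SAM68, 3 libraries). The labels place the harvest 24 h after the second round. Polyadenylated RNA was sequenced, and the comparison asks which transcripts change when SAM68, an RNA-binding regulator of splicing, is depleted. Nothing in the labels says that the 3 libraries of a group came from separate cultures, so p-values measure the spread between these libraries, which may be technical.

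SLC25 proteins are built from a repeated module of paired membrane helices and move a substrate across the inner membrane, mostly in exchange for another. The family feeds oxidative phosphorylation with ADP and phosphate, passes citrate, malate and aspartate between mitochondria and cytosol, and brings in the cofactors and iron that mitochondrial enzymes need. Carriers are made in the cytosol and inserted by a dedicated import route, and their levels differ widely between tissues.

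The libraries held between 52625492 and 82568487 reads on all loci, of which 93677 to 136281 were on SLC25 loci. KHDRBS1 had 15660.4, 14483 and 14737 normalized reads in the si-CTRL libraries and 583, 602 and 670.2 in the si-SAM68 libraries. All si-SAM68 libraries were thus low, at 4.13% of the control mean (log2 fold change -4.60, limma adjusted p = 2.13e-09). One library of each group stood apart. In si-SAM68 replicate 2 the ribosomal RNA locus took 15.1% of the reads, against 1.83% to 3.17% elsewhere, and 61 histone loci lay at a median of 1.72 above their mean on the log2 scale. The si-CTRL replicate 1 library was the farthest from the median in 16 of the 41 SLC25 genes tested (39.0%), close to the 38.6% of all loci for which this held. The counts of SLC25 genes called are therefore also given without these libraries.

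Most markers had the pattern of the line. VIM, CD44, AXL and CAV1 each had at least 43113 normalized reads in every library, PGR was listed at 0 throughout, and ESR1 did not pass 15.2. CDH1 and EPCAM, which define luminal epithelium, did not pass 9.2, although KRT19 of the same list reached 2048, FOXA1 1393 and ERBB2 3447. Some of these markers moved with the comparison: limma called CAV1 (log2 fold change 0.62), FOXA1 (0.64) and KRT19 (0.37) higher, as well as KRT18 (0.35) and KRT8 (0.31; adjusted p = 0.0696 with the replicate number as a block). ESRP2 was lower in all si-SAM68 libraries (log2 fold change -0.44) and CLDN4 had a value of -0.27, neither of them called. Of markers of other cell types, PTPRC did not pass 13.6, PECAM1 16.2 and DCN 3.7, whereas COL1A1 had at least 138281 normalized reads. COL1A2, COL3A1 and LUM, listed with COL1A1, did not pass 54.4, 48.4 and 4.5. CDH5 reached 42.5, and CDH5 and PECAM1 were lower in all si-SAM68 libraries (log2 fold changes of -1.09 and -0.75), neither of them called, while CDH5 passed the thresholds of the paper. VWF, also an endothelial marker, had a log2 fold change of -0.33 with groups that overlapped. The part of these marker differences in the values of the SLC25 genes was not tested. In such bulk RNA, fewer cells that express a gene and less RNA per cell cannot be told apart.

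The siRNAs listed by the study are taken to be those of both pools, which the sources do not state for these libraries. They are shown because 7-base matches to them are given for SLC25 genes described below. Taken by pool, such matches were no more frequent in the members than in all genes (25.6% and 29.7% for the SAM68 pool, 51.3% and 56% for the control pool). By siRNA the shares varied, at 20.5% of members and 13.9% of all genes for SAM68 siRNA 2. For SAM68 siRNAs 1, 3 and 4 they were 2.56% and 1.45%, 12.8% and 13.3%, and 2.56% and 9.22%. Each is the sense strand, and capitals mark the 7 bases that pair with guide positions 2 to 8, the seed.
SAM68 siRNA 1: gcacccauaugGACGUUAu
SAM68 siRNA 2: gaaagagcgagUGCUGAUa
SAM68 siRNA 3: uaugauggaugAUAUCUGu
SAM68 siRNA 4: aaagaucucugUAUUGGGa
control siRNA 1: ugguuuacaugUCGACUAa
control siRNA 2: ugguuuacaugUUGUGUGa
control siRNA 3: ugguuuacaugUUUUCUGa
control siRNA 4: ugguuuacaugUUUUCCUa
All 4 SAM68 siRNAs were found over their whole length in the coding sequence of KHDRBS1, and none of the 4 control siRNAs was.

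Across the family, si-SAM68 vs. si-CTRL changed few members. SLC25A25, SLC25A42 and SLC25A53 fell (log2 fold changes of -0.49, -0.54 and -0.56), and no member was called higher by limma at an adjusted p under 0.05. The 3 called were 7.32% of the 41 tested, beside 10.7% of all loci tested. In the separate directions, 0 members were called higher beside 4.47% of all loci, and 3 lower beside 6.23%. At an unadjusted p under 0.05 there were 3 higher and 8 lower members, 26.8% of those tested, and 27.0% of all loci. With the replicate number as a block, 2 members were called lower (SLC25A25 and SLC25A42) and 0 higher, beside 9% of all loci called, and SLC25A53 was lost (adjusted p = 0.0557). The edgeR test on recovered reads called 0 higher and 3 lower, beside 10.7% of all loci, and DESeq2 called 3 higher (SLC25A24, SLC25A36 and SLC25A40) and 3 lower, beside 14.8%. At the thresholds of the paper (a fold change of 1.5 or more, with p no higher than 0.05) only SLC25A21 passed. That was 2.44% of the members, beside 7.67% of all loci (1445 loci). The methods of the paper name no adjustment for this p, and the unadjusted limma p was used here. Without both libraries that stood apart, 1 member was called higher (SLC25A24) and 2 lower (SLC25A25 and SLC25A32), and none passed the thresholds of the paper; 10.3% of all loci were called in this setting. Leaving out si-CTRL replicate 1 alone gave 2 higher and 4 lower, with 15% of all loci called. Leaving out si-CTRL replicate 3, si-SAM68 replicate 2 or si-SAM68 replicate 3 gave 1 lower each, with 5.87%, 4.32% and 3.32% of all loci called.

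In 11 members (26.8%) the groups did not overlap, beside 33.9% of all loci. These were 3 members higher in all si-SAM68 libraries, SLC25A24, SLC25A36 and SLC25A40, beside 16.6% of loci. The 8 lower members were SLC25A6, SLC25A12, SLC25A21, SLC25A25, SLC25A41, SLC25A42, SLC25A44 and SLC25A53, beside 17.3%. The median log2 fold change of the 41 members was -0.02, and that of all loci 0.01. Values ran from -0.999 for SLC25A21 to 0.28 for SLC25A40, 13 members lay within 0.1 of 0, and 24 lay below 0. The quartiles of the members were -0.20 and 0.11, and those of all loci -0.19 and 0.20.

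**Figure D1:**
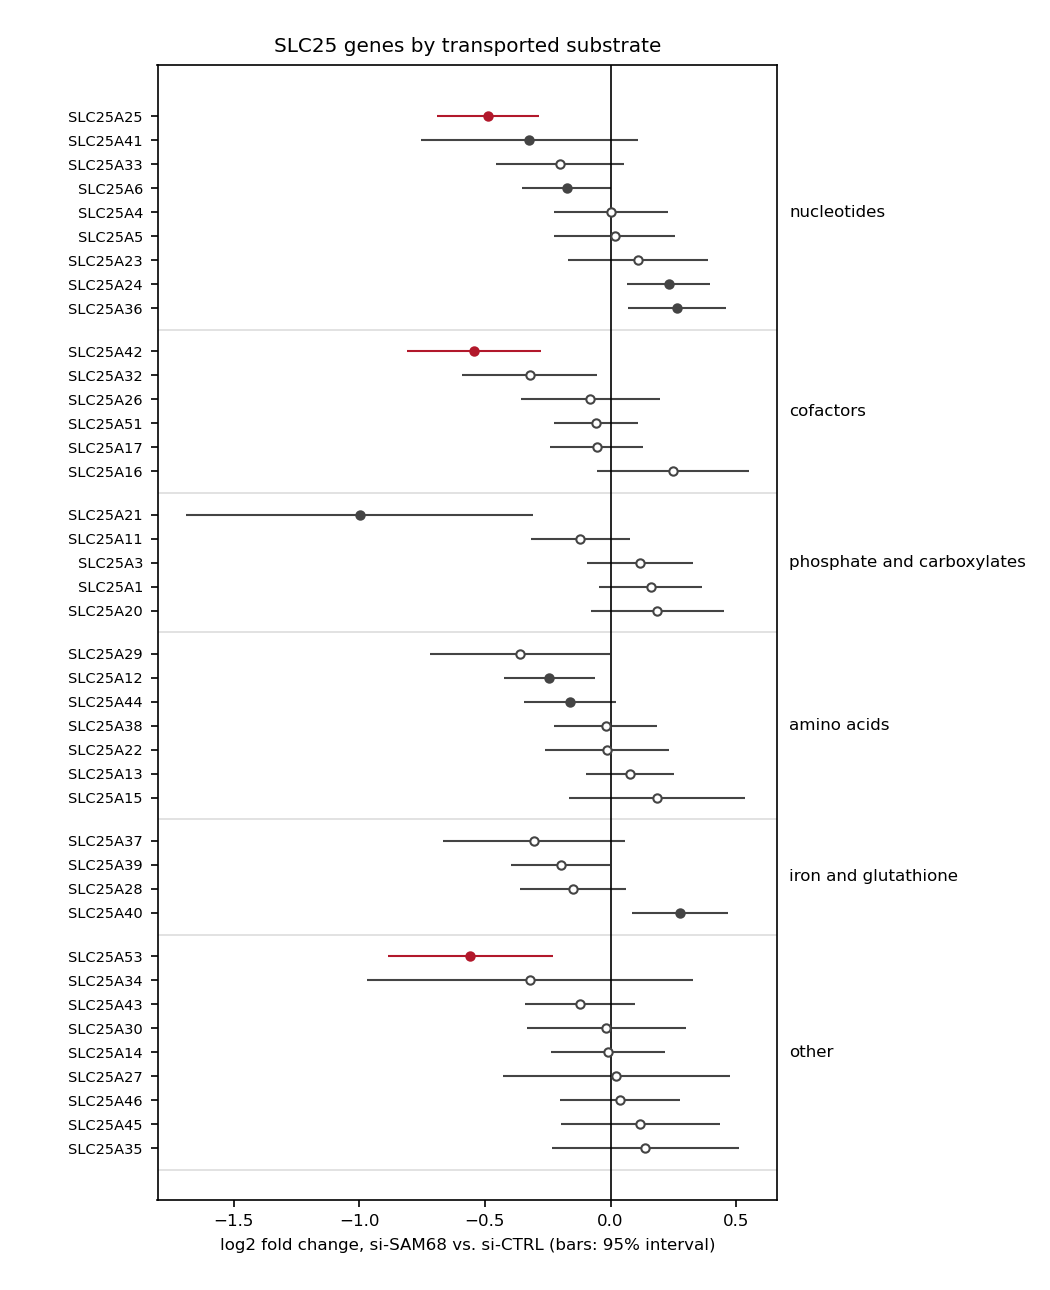
Log2 fold change (si-SAM68 vs. si-CTRL, horizontal axis) of SLC25 genes tested, grouped by substrate, with bars for the 95% interval of limma. Red marks the 3 genes called lower, and filled points the 11 genes whose groups did not overlap; SLC25A21 has the lowest value (-0.999) and the widest interval.

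Levels within the family, compared as mean normalized reads per kb of transcript, were led by a few carriers. SLC25A51 is left out of them, since its locus joins other genes. SLC25A5 held 30.6% of the level per kb summed over the other members in si-CTRL, SLC25A3 22.6%, SLC25A6 9.31%, SLC25A39 6.87% and SLC25A44 3.51%, together 72.9%. At the other end, 6 members were below the minimum for testing. SLC25A48 was listed at 0 in every library, which allows up to 3 reads, or 2.76 to 3.75 normalized reads per library. SLC25A47, SLC25A18 and SLC25A31 did not pass 1.9, SLC25A52 2.8 and SLC25A2 7.7 in any library. SLC25A31 is the ADP/ATP carrier of the germ line, SLC25A47 a carrier of liver and SLC25A18 a glutamate carrier. Of the members called lower, SLC25A25 lay in the middle of this order, with 262 normalized reads per kb in si-CTRL, and SLC25A42 (93.5) and SLC25A53 (26.0) lay lower, beside 16744 for SLC25A5.

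**Figure D2:**
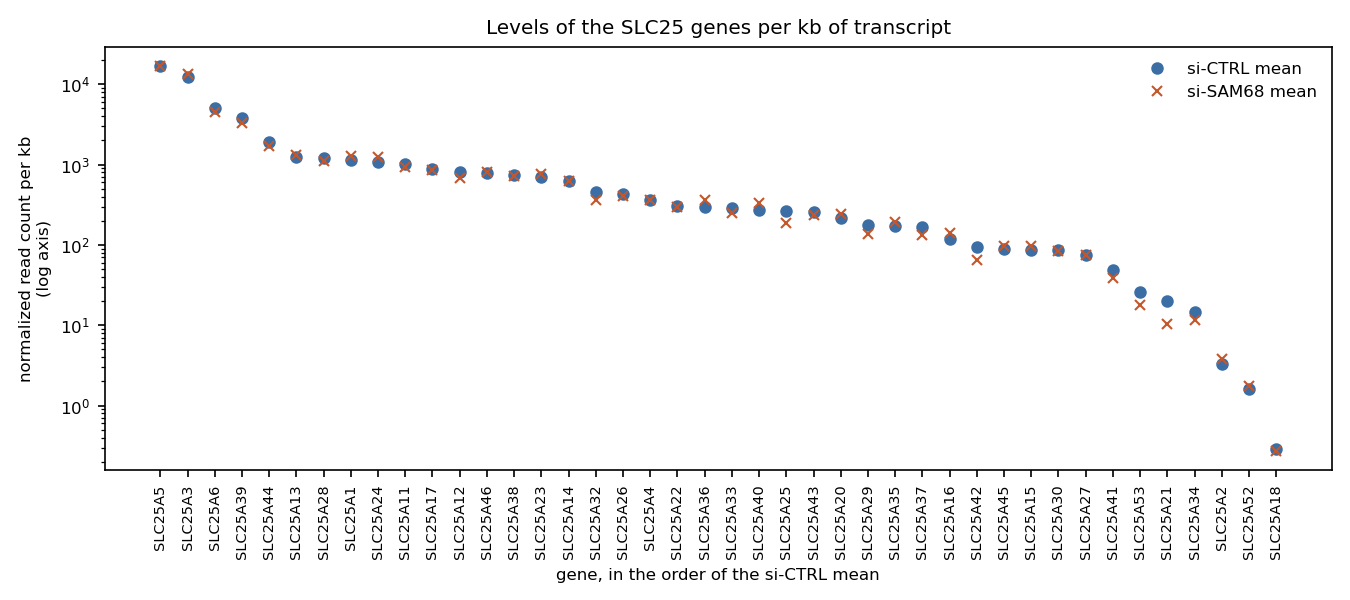
Mean normalized reads per kb of transcript (log axis) of SLC25 genes above 0 in both groups, in the order of the si-CTRL mean. The order runs from 16744 for SLC25A5 to 0.288 for SLC25A18, and circles and crosses of most genes nearly coincide.

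Of the 9 nucleotide carriers tested, limma called SLC25A25 lower and none higher, whereas DESeq2 also called SLC25A24 and SLC25A36 higher. SLC25A25 is an ATP-Mg/phosphate carrier that calcium activates and that adjusts the adenine nucleotide content of the matrix. Its locus is at chr9:130830479-130871537 (hg19). It had 967, 901 and 859 normalized reads in si-CTRL and 642, 659.6 and 641 in si-SAM68. All si-SAM68 libraries were below all si-CTRL libraries, and they lay close together. The mean went from 909 ± 54.5 to 647 ± 10.5 (SD, n = 3), or 71.2% of control (log2 fold change -0.49, SE 0.0912, 95% interval -0.69 to -0.28, limma adjusted p = 0.0107). The call was lost only without si-SAM68 replicate 3 (adjusted p = 0.0557), and over all alternatives the adjusted p ran from 0.00025 to 0.0557. The antisense locus SLC25A25-AS1 overlaps it, and its means were 248 ± 33.4 and 252 ± 25.1 (log2 fold change 0.03). The 3'UTR holds a match to the seed of SAM68 siRNA 1 at chr9:128109191-128109197 and of SAM68 siRNA 2 at chr9:128108054-128108060 (GRCh38, plus strand). They are shown in this order with the matched bases in capitals.
SLC25A25 match 1: aaagaattgGACGTTAgaagttgtc
SLC25A25 match 2: tctgagcccTGCTGATggctggggc

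The other ATP-Mg/phosphate carriers had other patterns. SLC25A24, the carrier of this kind with the highest level per kb, had 4789, 4546 and 4310.3 normalized reads in si-CTRL and 5231.5, 5335 and 5441 in si-SAM68. All si-SAM68 libraries were above all si-CTRL libraries. The log2 fold change was 0.23 (95% interval 0.07 to 0.40, limma adjusted p = 0.0746), which did not pass the threshold, and it passed without si-CTRL replicate 1 (adjusted p = 0.0151) and with DESeq2 (adjusted p = 0.0465). SLC25A23 had a log2 fold change of 0.11 with groups that overlapped. SLC25A41, with no more than 87.5 normalized reads in any library, had one of -0.32 (adjusted p = 0.315) with groups that did not overlap. Its log2 fold change was -0.21 without si-CTRL replicate 3.

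The ADP/ATP carriers, which pass newly made ATP out of the matrix, were dominated by SLC25A5. Its normalized reads were 17648, 23141 and 23207 in si-CTRL and 22093, 20710.3 and 21403 in si-SAM68. The si-CTRL replicate 1 library was the low one, and the groups overlapped (log2 fold change 0.02, limma adjusted p = 0.944; its sign turned in 4 of 18 alternatives). SLC25A6 had 10481, 10481.5 and 10534 in si-CTRL and 10212, 9051 and 8701 in si-SAM68. All si-SAM68 libraries were lower, by a log2 fold change of -0.17 that did not pass the test (adjusted p = 0.187). Per kb, SLC25A5 made up 75.2% ± 2.86 of the ADP/ATP carrier reads in si-CTRL and 77.5% ± 1.06 in si-SAM68 (SD, n = 3), SLC25A6 23.1% ± 2.80 and 20.8% ± 1.05, and SLC25A4, the isoform of muscle and heart, 1.65% and 1.69%. These shares overlapped between the groups. The ADP/ATP carriers are close paralogues with many processed pseudogenes, so reads can be shared between them.

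The pyrimidine nucleotide carriers differed in sign. SLC25A36 had 1346, 1369.5 and 1466 normalized reads in si-CTRL and 1655, 1576 and 1799.6 in si-SAM68. The si-SAM68 libraries were all higher (log2 fold change 0.27, limma adjusted p = 0.0822; DESeq2 adjusted p = 0.049). SLC25A33 had a log2 fold change of -0.20 with groups that overlapped (adjusted p = 0.289), and it was called lower without si-CTRL replicate 1 (log2 fold change -0.31, adjusted p = 0.0433).

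Of the 7 cofactor carriers tested, limma called SLC25A42 lower and none higher. SLC25A42 brings coenzyme A into the matrix in exchange for adenine nucleotides, and its locus is at chr19:19174770-19223837 (hg19). It had 296, 284 and 295 normalized reads in si-CTRL and 217, 197 and 186.5 in si-SAM68. The control libraries lay close together and all si-SAM68 libraries were lower. The si-CTRL mean was 292 ± 6.78 and the si-SAM68 mean (SD 15.3, n = 3) 68.6% of it (log2 fold change -0.54, SE 0.119, 95% interval -0.81 to -0.28, limma adjusted p = 0.0201). Between 167 and 310 reads per library stood behind these values. The call was lost without si-CTRL replicate 3 (adjusted p = 0.0623), si-SAM68 replicate 2 (0.0794) or si-SAM68 replicate 3 (0.0916), and without both libraries that stood apart (0.052); the adjusted p was as low as 0.00598 in another alternative. The 3'UTR holds a match to the seed of SAM68 siRNA 2 at chr19:19111216-19111222 (GRCh38, plus strand), shown with the matched bases in capitals.
SLC25A42 match: ccgacatgcTGCTGATtctagtgac

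SLC25A16, also linked to coenzyme A, had a log2 fold change of 0.25 with groups that overlapped (adjusted p = 0.271). SLC25A32, which carries folate and flavin adenine dinucleotide, had 1069, 1435 and 1415 normalized reads in si-CTRL and 987, 1053 and 1069.0 in si-SAM68. The low control library, replicate 1, lay at the level of the highest si-SAM68 library, so that the groups just overlapped (log2 fold change -0.32, limma adjusted p = 0.121). Without si-CTRL replicate 1 SLC25A32 was called lower (log2 fold change -0.46, adjusted p = 0.00346), and also without both libraries that stood apart (adjusted p = 0.0104). The carriers for S-adenosylmethionine (SLC25A26) and peroxisomal cofactors (SLC25A17) had log2 fold changes of -0.08 and -0.06. The locus that holds the NAD carrier SLC25A51 joins EXOSC3, SHB and TOMM5, so that its log2 fold change of -0.06 cannot be assigned to 1 gene.

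Of the 5 carriers of phosphate and carboxylates tested, none was called. SLC25A21, which exchanges oxoadipate for oxoglutarate in the breakdown of lysine and tryptophan, was the member past the thresholds of the paper. Its locus is at chr14:37147126-37641865 (hg19). It had 62.5, 48.4 and 55.1 normalized reads in si-CTRL and 25.2, 18.4 and 42.4 in si-SAM68, from 20 to 58 reads per library. The groups did not overlap, with si-SAM68 replicate 3 nearest to the controls. The mean went from 55.4 ± 7.03 to 28.7 ± 12.4 (SD, n = 3). The log2 fold change was -0.999 (SE 0.310, 95% interval -1.69 to -0.31; limma adjusted p = 0.0689 by Benjamini-Hochberg over all loci, 0.00928 before adjustment). It was called without si-SAM68 replicate 3 (adjusted p = 0.0488), and its adjusted p ran from 0.0488 to 0.239 over the alternatives. The antisense locus SLC25A21-AS1, which overlaps its start, had means of 231 ± 37.0 and 246 ± 28.9 (log2 fold change 0.10). The 3'UTR holds matches to the seeds of SAM68 siRNA 3 at chr14:36679511-36679517 and SAM68 siRNA 2 at chr14:36679491-36679497 (GRCh38, minus strand), shown in this order with the matched bases in capitals.
SLC25A21 match 1: cttgattttATATCTGcatccagag
SLC25A21 match 2: cagagatgaTGCTGATtcagtaaag

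SLC25A3 brings phosphate, and copper, into the matrix. Its normalized reads were 17913, 22026 and 22188 in si-CTRL and 22437, 21414 and 23209 in si-SAM68. The si-CTRL replicate 1 library was again the low one and the groups overlapped (log2 fold change 0.12, 95% interval -0.09 to 0.33, limma adjusted p = 0.463). Without that library the log2 fold change was 0.02. The citrate carrier SLC25A1, the carnitine/acylcarnitine carrier SLC25A20 and the oxoglutarate/malate carrier SLC25A11 had log2 fold changes of 0.16, 0.19 and -0.12, and their groups overlapped.

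Of the 7 amino acid carriers tested, none was called. SLC25A12, an aspartate/glutamate carrier of the malate-aspartate shuttle, had 2559.7, 2414 and 2282.5 normalized reads in si-CTRL and 1950.4, 2065 and 2111 in si-SAM68. The si-SAM68 libraries were all lower (log2 fold change -0.24, 95% interval -0.42 to -0.06), although the gene did not pass the test (limma adjusted p = 0.0877, 0.0614 to 0.224 over the alternatives). SLC25A13, its paralogue in the shuttle, had a log2 fold change of 0.08 with groups that overlapped. SLC25A44, which takes branched-chain amino acids into mitochondria, had 7373, 6243 and 6407 normalized reads in si-CTRL and 6041.5, 5955 and 5848 in si-SAM68. The si-SAM68 libraries were all lower and close together, while si-CTRL replicate 1 was the highest (log2 fold change -0.16, adjusted p = 0.236). Without that library the log2 fold change was -0.09. The carrier of basic amino acids SLC25A29 had a log2 fold change of -0.36 (adjusted p = 0.183), the ornithine carrier SLC25A15 one of 0.18, the glycine carrier SLC25A38 -0.02 and the glutamate carrier SLC25A22 -0.01. The groups of these overlapped.

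Of the 4 carriers of iron and glutathione, none was called by limma. SLC25A40 had 1112, 1061 and 1147 normalized reads in si-CTRL and 1376, 1379 and 1269 in si-SAM68. All si-SAM68 libraries were higher (log2 fold change 0.28, 95% interval 0.09 to 0.47, limma adjusted p = 0.0664). It was called without si-CTRL replicate 1 (adjusted p = 0.0418) and with DESeq2 (adjusted p = 0.0371). SLC25A39, the other glutathione carrier and far more abundant per kb, had 6528, 5621 and 5959.7 in si-CTRL and 5691, 5226 and 4859 in si-SAM68. Its groups overlapped through si-SAM68 replicate 1 (log2 fold change -0.20, adjusted p = 0.182). The mitoferrins SLC25A28 and SLC25A37, which import iron, had log2 fold changes of -0.15 and -0.31 with groups that overlapped.

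The remaining 9 members tested have other or unsettled substrates, and SLC25A53 among them was called lower. No substrate of SLC25A53 is given here. Its locus is at chrX:103343899-103401710 (hg19). It had 170.0, 147 and 169 normalized reads in si-CTRL and 109.8, 101 and 118 in si-SAM68. All si-SAM68 libraries were lower. The mean went from 162 ± 12.9 to 109.8 ± 8.61 (SD, n = 3), or 67.7% of control (log2 fold change -0.56, SE 0.147, 95% interval -0.89 to -0.23, limma adjusted p = 0.0397). With the replicate number as a block the adjusted p was 0.0557, above the threshold. Leaving out any library in turn also ended the call, with adjusted p from 0.0505 to 0.143, and so did leaving out both libraries that stood apart (0.142), no filter (0.0775) and quantile normalization (0.0557). The locus contains ZCCHC18 and a locus with no symbol, and both were lower too, with log2 fold changes of -0.71 (adjusted p = 0.0323) and -0.65 (adjusted p = 0.0281). Whether reads were shared between these loci was not tested. The 3'UTR of SLC25A53 holds matches to the seeds of SAM68 siRNA 2 at chrX:104100809-104100815 and SAM68 siRNA 3 at chrX:104100372-104100378 (GRCh38, minus strand), shown in this order with the matched bases in capitals.
SLC25A53 match 1: aatattctgTGCTGATtgccgtggt
SLC25A53 match 2: taaatatctATATCTGtttaaacac

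The uncoupling protein-like carriers SLC25A14, SLC25A27 and SLC25A30 had log2 fold changes of -0.01, 0.02 and -0.02, and SLC25A46, which lies in the outer membrane and acts in mitochondrial shape, 0.04. SLC25A34, SLC25A35, SLC25A43 and SLC25A45 lay between -0.32 and 0.14 with groups that overlapped. The locus of SLC25A34 spans many other genes, so that its reads may be shared.

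**Figure D3:**
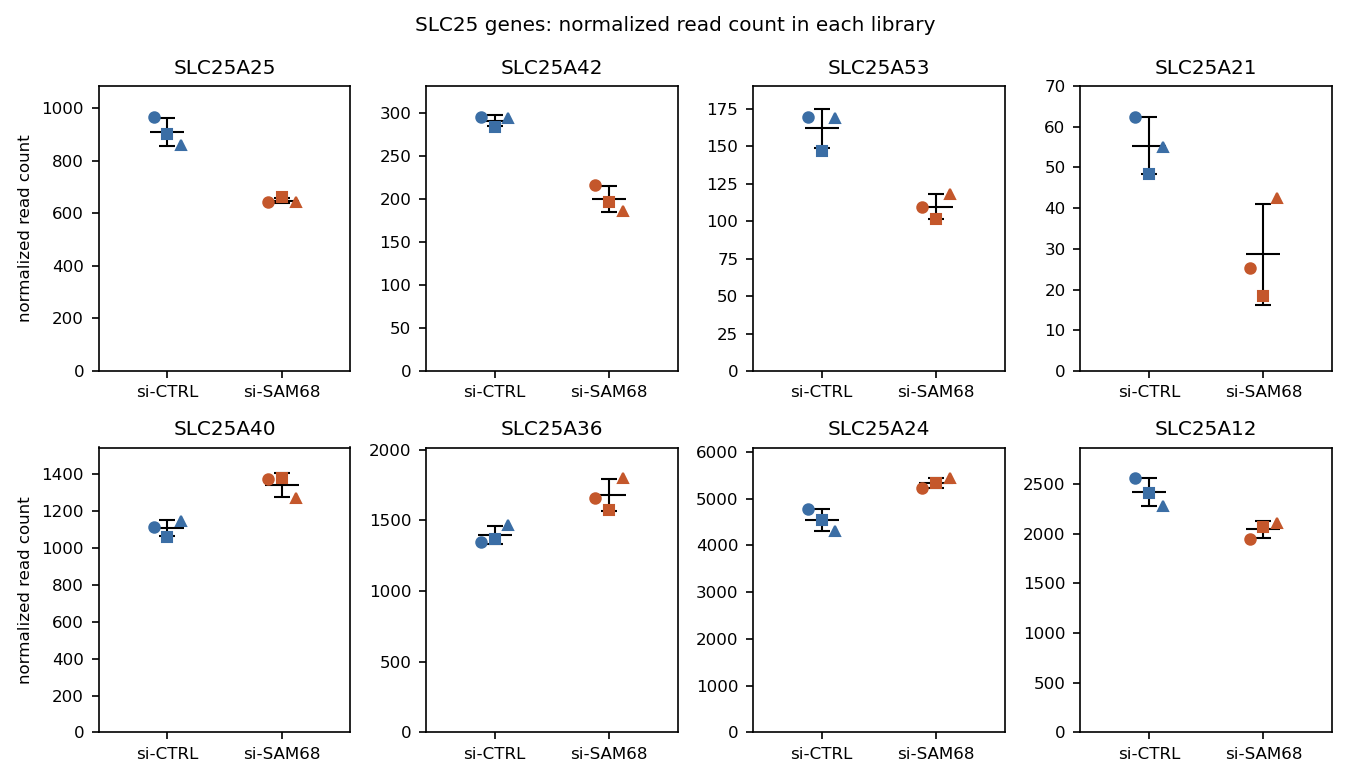
Normalized reads (vertical axis, from 0) of 8 SLC25 genes in each library, with the mean and SD of the 3 libraries of a group as lines; circles, squares and triangles are replicates 1, 2 and 3. Shown are genes called or past the thresholds of the paper, those higher in all si-SAM68 libraries, and SLC25A12. Groups that are apart thus largely follow from this choice. SLC25A25, SLC25A42, SLC25A53, SLC25A21 and SLC25A12 are lower and SLC25A40, SLC25A36 and SLC25A24 higher in si-SAM68. SLC25A6, SLC25A41 and SLC25A44, whose groups did not overlap either, are not shown. The first 3 panels are the genes called by limma.

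Carriers that share a substrate were also compared as ratios of normalized reads per kb, which do not depend on the size factor of a library. Over 14 pairs within groups of carriers with a shared substrate, the ratio did not overlap between the conditions in 8 (57.1%), beside 34.7% of all 741 pairs of tested SLC25 genes whose locus carries a single symbol. The 3 pairs of ADP/ATP carriers overlapped. The other groups are those of 6 pairs chosen with the values of their members known. Pairs of a group also share genes. Among ATP-Mg/phosphate carriers, SLC25A23 and SLC25A24 did not overlap when paired with SLC25A25 or SLC25A41, whereas SLC25A23 with SLC25A24 and SLC25A25 with SLC25A41 overlapped. The shares of 57.1% and 34.7% are thus a description, and no enrichment is read from them. In 5 of the 6 chosen pairs, the ratio was higher in every si-SAM68 library than in any si-CTRL library. The gene with the higher log2 fold change was put on top in each, so the direction is fixed by that choice and nothing is read from it. The ratio of SLC25A24 to SLC25A25 was 4.03, 4.11 and 4.08 in si-CTRL and 6.63, 6.58 and 6.90 in si-SAM68. It varied little within each group (4.07 ± 0.040 and 6.70 ± 0.173, SD, n = 3). The ratio of SLC25A16 to SLC25A42 went from 1.27 ± 0.201 to 2.21 ± 0.482, with the highest value (2.76) in si-SAM68 replicate 3. That of SLC25A36 to SLC25A33 went from 1.05 ± 0.115 to 1.44 ± 0.118, that of SLC25A13 to SLC25A12 from 1.53 ± 0.162 to 1.90 ± 0.0797, and that of SLC25A40 to SLC25A39 from 0.073 ± 0.0047 to 0.102 ± 0.00478. The mitoferrins (SLC25A28 to SLC25A37) were the pair that overlapped, at 7.54 ± 1.20 and 8.33 ± 0.221.

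**Figure D4:**
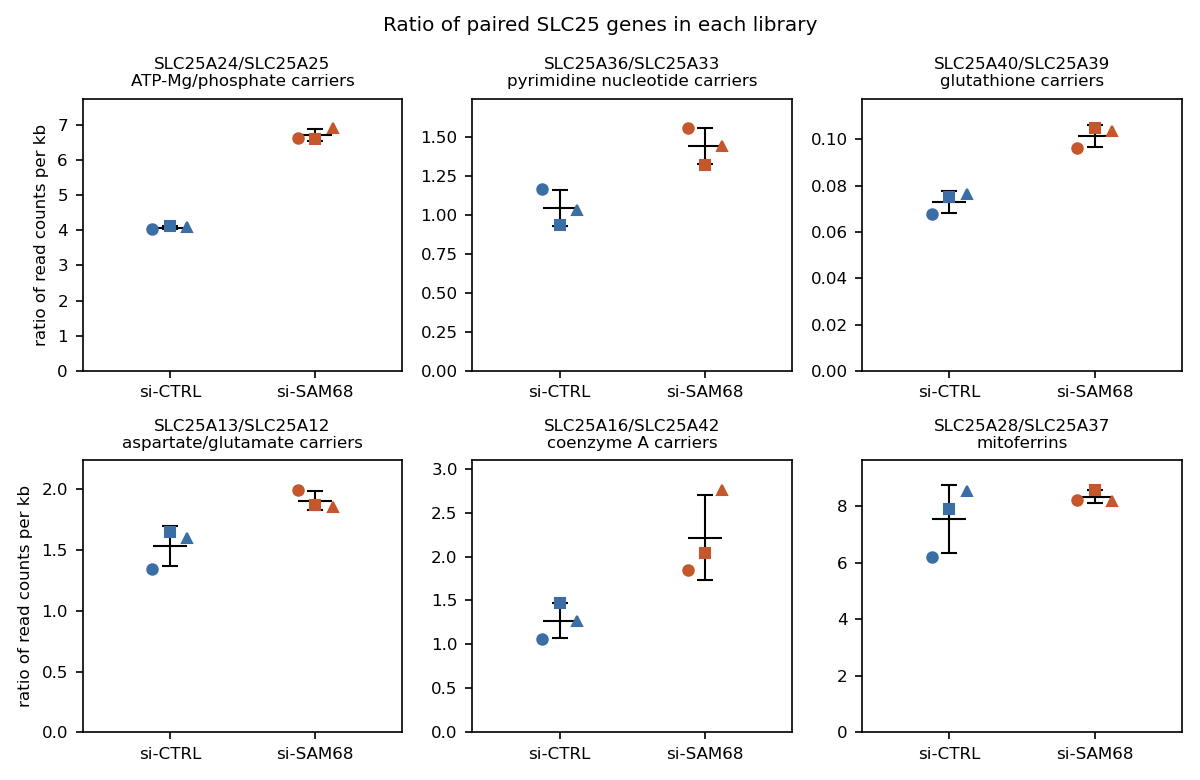
Ratio of normalized reads per kb (vertical axis, from 0) for 6 pairs of SLC25 genes with a shared substrate in each library, with the mean and SD of each group as lines; circles, squares and triangles are replicates 1, 2 and 3. The ratio of SLC25A24 to SLC25A25 is 4.07 in si-CTRL and 6.70 in si-SAM68, and the mitoferrin ratio overlaps between the groups.

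The 3 members called lower and SLC25A21 shared a sequence feature, searched for with their values known. Each held in its 3'UTR the bases TGCTGAT, the match to the seed of SAM68 siRNA 2. The 7 bases in capitals of each siRNA listed above, as DNA, were searched on the transcribed strand in the longest annotated 3'UTR of the 39 members tested whose locus carries a single symbol (SLC25A15 and SLC25A51 were left out). Of these, 10 (25.6%) held a match to the SAM68 pool, beside 29.7% of 11968 genes. Among the 10 members, 8 had a log2 fold change below 0, the median was -0.34, and 3 were called lower. Among the 29 members without a match, 15 were below 0, the median was -0.01, and none was called lower by limma, edgeR or DESeq2. Since the match was searched for with these values known, the split of the members is a description and tests nothing. Over all genes the medians with and without a match were both -0.01, 51.3% and 51.2% were below 0, and 10.8% and 6.99% were called lower. With a match to the SAM68 pool and none to the control pool, 4 of 4 members were below 0 (median -0.34). The 779 such genes had a median of -0.07, with 58.8% below 0, 96 called lower (12.3%) and 12 called higher. With a match to neither pool, 54.5% of 4488 genes were below 0 (median -0.03), and 10 of 15 members (median -0.02). Of these 4488 genes, 321 were called lower (7.15%) and 153 higher. With matches to both pools, 49.2% of 2775 genes were below 0 (median 0.006), and 4 of 6 members (median -0.37). Of these 2775 genes, 288 were called lower (10.4%) and 194 higher.

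For SAM68 siRNA 2 alone, 8 members (20.5%) and 13.9% of all genes held the match. Their medians were -0.42 and -0.06, and 3 of these members were called lower. Of the genes with this match, 13.5% were called lower (224 lower and 70 higher), beside 7.15% called lower with a match to neither pool. Over all genes the medians were -0.09 with a match to SAM68 siRNA 1, 0.04 with one to SAM68 siRNA 3 and 0.00 with one to SAM68 siRNA 4. The other members with the match to SAM68 siRNA 2 were SLC25A4, SLC25A12, SLC25A16 and SLC25A29. SLC25A12 holds it at 2 places, at chr2:171784728-171784734 and chr2:171784620-171784626 (GRCh38, minus strand). They are shown with the matched bases in capitals.
SLC25A12 match 1: aaaggtattTGCTGATaaaaggcat
SLC25A12 match 2: acttgtgtgTGCTGATgtgtttcca

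The match did not go with a lower level in every member. SLC25A16 held matches to 3 of the SAM68 siRNAs in a 3'UTR of 5431 bases and had a log2 fold change of 0.25, and SLC25A4 had one of 0.00. The 3'UTRs of the members with a match were longer (median 1906.5 bases, against 1204 without). With 3'UTRs of at least 1000 bases only, 9 members with a match had a median of -0.36 (7 below 0) and 17 without had one of 0.02 (8 below 0). Over all genes with such 3'UTRs the medians were -0.00372 with a match and 0.00317 without. SLC25A24, SLC25A36 and SLC25A40, the members higher in all si-SAM68 libraries, held matches to the control pool and none to the SAM68 pool, as did 14 members in all. Those had a median of 0.06, beside 0.01 for the 3926 such genes. SLC25A25, SLC25A53, SLC25A21 and SLC25A12 held matches to the control pool as well, and SLC25A42 held none. A match of 7 bases is a description of the sequence, and any part of the siRNA seeds in these values was not tested.

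**Figure D5:**
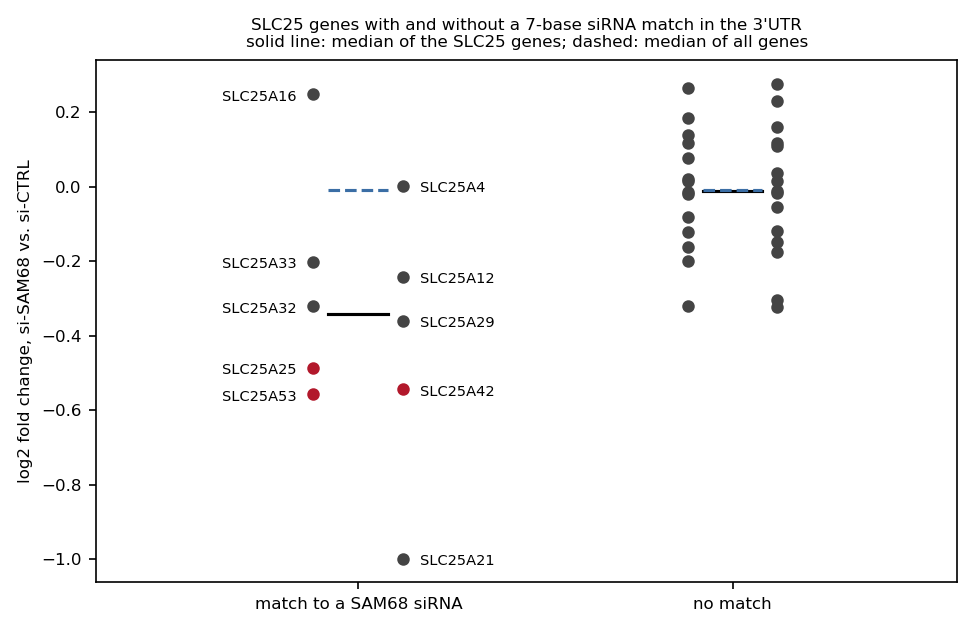
Log2 fold change (vertical axis) of the 39 SLC25 genes tested whose locus carries a single symbol, with (left) and without (right) a 7-base match to a SAM68 siRNA; red points are the 3 genes called lower. The solid line is the median of the SLC25 genes shown (-0.34 and -0.01) and the dashed line that of all genes (-0.01 in both).

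Other genes around the carriers were read in lists. Of 4 family members with other names that were tested (UCP2, UCP3, MTCH1 and MTCH2), limma called 0, edgeR and DESeq2 0, and none had an unadjusted p under 0.05. Of 13 genes of the import route for carriers, edgeR called 1 and DESeq2 2, and limma called 0 higher and 1 lower. This was TOMM22, a receptor subunit of the outer membrane, with means of 12215 ± 945 and 7870.4 ± 377 (log2 fold change -0.63, limma adjusted p = 0.00186). Of 18 genes of other mitochondrial transport, among them the pyruvate carrier, the calcium uniporter and the sideroflexins, limma called 0 and edgeR 0, DESeq2 called 1, and 4 had an unadjusted p under 0.05 (3 higher, 1 lower).

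Of 30 enzymes that use or make carried substrates, 1 was called higher and 4 lower. MTHFD2, of mitochondrial folate metabolism, went from 10625 ± 31.4 to 5349 ± 162 (log2 fold change -0.99, limma adjusted p = 0.000107). The isocitrate dehydrogenases differed in sign, with IDH1 of the cytosol at a log2 fold change of 0.35 (adjusted p = 0.0168) and IDH2 of the matrix at -0.44 (adjusted p = 0.0118). OGDH, of the oxoglutarate dehydrogenase complex, and ACLY, which cleaves exported citrate, had log2 fold changes of -0.35 and -0.28 (adjusted p = 0.0346 and 0.0486). With the replicate number as a block the adjusted p of ACLY was 0.0663, above the threshold. Of 9 regulators of mitochondrial biogenesis tested, 1 was called higher and 0 lower, and 1 higher and 2 lower had an unadjusted p under 0.05. TFAM, which packages and transcribes mitochondrial DNA, went from 13662 ± 1996 to 19234 ± 1962 (SD, n = 3; log2 fold change 0.50, adjusted p = 0.0255). PPARGC1A of the same list was below the minimum for testing. It had 20, 3.9 and 9.5 normalized reads in si-CTRL and 0, 3.7 and 0 in si-SAM68. Over these lists 7 of 74 genes were called, beside 10.7% of all loci, and leaving out 1 library moved this count to between 2 and 11.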

How the data were processed

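The authors deposited 1 table for the 6 libraries, in the unit signal: reads per FAST DB locus (hg19) divided by the DESeq2 size factor of each library. STAR 2.4.0 is named in the submitters' processing notes. The labels name a stranded library kit. Whether counting used strand is not given in the sources used here, and 28 of the 47 SLC25 loci overlap another locus (21 of them one with a mean of at least 10). Values divided by the smallest difference found in a library were whole reads in 100% of cases (within 0.01 reads); in si-SAM68 replicate 1 the step, 1.01, is close to 1. The labels and the methods of the paper differ on medium, extraction kit and time of harvest.

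Differences were tested with lmFit and eBayes (trend) of limma 3.58.1, under R 4.3.3, on log2(normalized reads + 1) for loci averaging 10 or more, without a block, with Benjamini-Hochberg adjustment over all loci tested; fold changes are on this scale, which understates the change of low genes. Alternatives were pseudocounts 0.1 and 5, no filter, a minimum mean of 50, TMM factors, quantile normalization, no trend, a robust trend, the replicate block, leaving out each library, and edgeR 4.0.16 (quasi-likelihood) and DESeq2 1.42.0 on recovered reads, which called 2026 and 2789 loci. Leaving out both libraries that stood apart, and the seed matches, were added after seeing the data. The replicate numbers come from the sample titles, which do not say whether equal numbers mark paired libraries. Deviations from the group means correlated at 0.105, 0.231 and 0.125 for equal numbers and from -0.125 to 0.007 for others. The main test used no block, so results with the replicate number as a block are given beside it. Differences between libraries of a group were at least 12.6 times sampling noise (chi-square per degree of freedom).

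Named genes were KHDRBS1, SLC25 genes called or past the thresholds of the paper, the 5 with the highest mean per kb, all other SLC25 genes by log2 fold change, and at most 5 called genes per list. Values in every library of SLC25A12, SLC25A24, SLC25A32, SLC25A36 and SLC25A40 are given after their values were seen. Lengths and 3'UTRs are from GENCODE 29 (GRCh38): for lengths the principal transcript, for matches the longest 3'UTR; the lengths counted over by FAST DB were not used. The SLC25 genes and all lists were chosen with earlier results of these data known. Floors cover counting error only.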

Additional observations from a re-analysis of the deposited data

How the results depend on the processing

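KHDRBS1 fell under all 18 alternatives (log2 fold change -4.66 to -4.54). The number of SLC25 genes called higher was 0 in 15 alternatives, 3 with DESeq2, 1 without both libraries that stood apart, and 0 to 2 when 1 library was left out. The number called lower, 3, became 2 without both libraries that stood apart, 2 with no filter and 2 with quantile normalization (which both lost SLC25A53), and 1 to 4 when 1 library was left out. The number past the thresholds of the paper, 1, became 0 with a minimum mean of 50, where SLC25A21 was not tested, and 0 without both libraries that stood apart; it was 1 to 2 when 1 library was left out. Without a trend, 2 genes of the pathway lists and 899 loci were called in place of 7 and 2017; leaving out 1 library gave 2 to 11 and 627 to 2834. For SLC25 genes called lower (4), pathway list genes (11) and loci (2834), the highest count came without si-CTRL replicate 1. The cause of these differences was not tested. The median of the members with a match to a SAM68 siRNA, a split made with their values known, lay between -0.41 and -0.27.

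With the replicate block, 2 SLC25 genes were called lower (SLC25A25 and SLC25A42), 0 higher, 1 passed the thresholds of the paper, 6 pathway list genes and 1697 loci were called, and KHDRBS1 had a log2 fold change of -4.60. SLC25A53 was the SLC25 gene whose call the block changed, and ACLY the gene of the pathway lists.

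Of the genes called, SLC25A25 was called in 17 of 18 alternatives, SLC25A42 in 14 and SLC25A53 in 8, all with the same sign. With 3 libraries a group, SLC25A12, SLC25A24, SLC25A36 and SLC25A40 had adjusted p from 0.0664 to 0.0877 with limma, near the threshold. SLC25A21, with few reads, had an SE of 0.310 on the log2 scale, against 0.0737 for SLC25A24, and reads shared with overlapping loci or pseudogenes could not be separated.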
